A study of Mus musculus with 43 samples.

Results

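The mouse annotation holds a small family of predicted protein-coding genes whose sequence is a tandem repeat. Their levels were examined in RNA sequencing libraries of sorted brain endothelial cells (EC). The family was taken as 7 genes by symbol, Gm10800, Gm10801, Gm11168, Gm21738, Gm10722, Gm10719 and Gm10717, which make up 7 of the 54532 genes in the count table. They were chosen by measured values of these same libraries, namely their counts, and which comparison led to the choice is not recorded. The p-values below therefore describe these libraries and are no independent evidence.

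The centromeres of mouse chromosomes are flanked by long arrays of the major satellite, also named the gamma satellite, an A and T rich tandem repeat. These arrays are packed as constitutive heterochromatin, in which the Suv39h enzymes methylate lysine 9 of histone H3 and the HP1 proteins, products of the Cbx genes, bind that mark. The arrays are nevertheless transcribed at a low level in many cell types, and the transcripts stay mostly in the nucleus. Copies of such a repeat that lie outside the unassembled arrays can carry annotated gene models, and reads from any copy can align to them. The libraries were not matched to a repeat annotation here.

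The 43 libraries came from EC of the cortex (21 libraries) or hippocampus (22 libraries) of mice aged 2 months. Dissociated tissue was freed of myelin and cells negative for CD45 and CD11b and positive for CD31 were sorted. Of the 7 strains, CAST/EiJ and WSB/EiJ are recently wild-derived (12 libraries) and A/J, DBA/2J, NOD/ShiLtJ, 129S1/SvImJ and C57BL/6J are long-inbred (31 libraries). None of the mice carried a treatment or transgene according to the labels, which do not tell which libraries came from the same mouse. Strain 129S1/SvImJ had 6 female and 3 male libraries. C57BL/6J, NOD/ShiLtJ, CAST/EiJ and WSB/EiJ had 2 female and 4 male libraries each, and DBA/2J and A/J had 1 female and 4 male libraries each. Titles end in high or low, a tag that the labels do not define, and 15 of 16 female and 14 of 27 male libraries were titled high. Because the labels name no separate mice, p-values measure the spread between libraries, part of which may be technical.

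Total counts ran from 1626534 to 49372356 with a median of 5790701. Xist, the RNA that coats the inactive X chromosome, lay between 190.2 and 1047 TMM CPM in female libraries and did not pass 17.44 in male ones, and the sum of 4 Y-linked genes was at most 2.595 in female and at least 41.7 in male libraries. TMM CPM are CPM, counts scaled to library size, after adjusting each library by the trimmed mean of M-values. All 10 endothelial markers were detected, with a summed level of 9632 to 18867 TMM CPM. The summed level of 6 pericyte markers was 1725 to 9362, that of 6 astrocyte markers 1059 to 19338 and that of 4 smooth muscle markers 49.8 to 329. Sums of neuronal markers were 34.5 to 798, of oligodendrocyte markers 14.7 to 299.7, of microglial and leukocyte markers 0 to 109 and of fibroblast markers 0 to 63.3. In bulk libraries, fewer cells of one type and less RNA per cell cannot be told apart.

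The gene models lie at 3 places in the mm10 assembly. Gm10801 (plus strand, chr2:98662237-98664083) and Gm10800 (minus strand, chr2:98666547-98667301) are neighbours on chromosome 2. Gm10722 (chr9:3000922-3002330), Gm11168 (chr9:3003346-3006948), Gm10719 (chr9:3017408-3021593) and Gm10717 (chr9:3025417-3033289) follow each other on the plus strand near the start of chromosome 9, inside the antisense lincRNA Gm26870. Gm21738 (chr14:19415857-19418930) lies on the minus strand of chromosome 14. Their longest transcripts measured 504 to 684 bases and their GC content was 34.3% to 35.9%, against a median of 47.1% and a 5th percentile of 37.0% over 55341 annotated genes.

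The repeat can be read within one member. The longest exon of Gm10722 holds 2 consecutive units of 234 bases that match at 94.9% of positions, and both are shown because they display the repeat that defines the family. Capitals mark the 12 positions at which the units differ (GENCODE transcript sequence, plus strand, 5′ to 3′, chr9:3000962-3001195 and chr9:3001196-3001429).
Gm10722 unit 1: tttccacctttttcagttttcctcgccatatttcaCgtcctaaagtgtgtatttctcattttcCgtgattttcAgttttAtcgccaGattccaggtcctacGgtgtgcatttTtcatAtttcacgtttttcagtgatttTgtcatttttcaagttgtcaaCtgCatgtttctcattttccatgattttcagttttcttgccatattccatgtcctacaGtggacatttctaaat
Gm10722 unit 2: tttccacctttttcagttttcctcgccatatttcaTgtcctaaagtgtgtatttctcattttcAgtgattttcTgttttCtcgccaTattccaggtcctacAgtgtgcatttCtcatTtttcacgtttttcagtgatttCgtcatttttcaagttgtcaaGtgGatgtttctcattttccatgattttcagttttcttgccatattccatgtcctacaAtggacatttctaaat

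All 7 members share this sequence. Pairs of members were 88.3% to 97.4% identical over 509 to 687 aligned bases. A window of 60 bases, chosen because it is the best kept in the family, shows how close the copies are. Capitals mark a base that differs from Gm10722, each sequence is given 5′ to 3′ on the strand of its gene.
Gm10722 (chr9:3000977-3001036, plus): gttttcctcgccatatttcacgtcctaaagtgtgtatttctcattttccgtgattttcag
Gm10719 (chr9:3020240-3020299, plus): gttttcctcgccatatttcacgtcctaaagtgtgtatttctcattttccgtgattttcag
Gm10717 (chr9:3027608-3027667, plus): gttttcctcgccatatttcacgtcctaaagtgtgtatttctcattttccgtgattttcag
Gm11168 (chr9:3004776-3004835, plus): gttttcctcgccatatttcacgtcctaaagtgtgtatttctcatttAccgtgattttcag
Gm10800 (chr2:98667157-98667216, minus): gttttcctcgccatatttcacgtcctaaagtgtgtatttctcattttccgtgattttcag
Gm10801 (chr2:98662390-98662449, plus): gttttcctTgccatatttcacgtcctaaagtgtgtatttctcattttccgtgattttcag
Gm21738 (chr14:19418786-19418845, minus): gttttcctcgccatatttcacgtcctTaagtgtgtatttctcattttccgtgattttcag
The window was the same in 4 members and differed at 1 base in the other 3.

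The members could share reads. Of all windows of the read length in their exons, none of Gm10800 or Gm10801 occurred exactly in another gene. The share was 7.4% for Gm10722, 10.7% for Gm10717, 11.7% for Gm21738, 20.8% for Gm11168 and 30.6% for Gm10719. How reads that align to several places were counted, and whether strand was used, is not given in the sources used here, so counts of the chromosome 9 genes could be split among copies or shared with Gm26870. A search of the annotation found 6 further genes of the same repeat, Gm10715, Gm10718, Gm10720, Gm10721 and Gm17535 in sense (94.3% to 96.9% identity) and Gm26870 in antisense (90.6%).

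Gm10800 dominated the family. In the 27 male libraries it took 63.9% to 79.7% of the counts on the 7 members, and all members together took 0.0239% to 0.943% of a library. Per kb of exon, the median level in male libraries was 956 TMM CPM for Gm10800. It was 105 for Gm10722, 98.3 for Gm21738, 71.9 for Gm10801 and 21.3 for Gm11168. Gm10719 and Gm10717 were the lowest, with medians of 4.52 and 2.07 TMM CPM per kb. The ranges of neighbours in this order overlapped between libraries, 265 to 9695 for Gm10800 and 7.66 to 1417 for Gm10722. Gm10800 had counts in all 43 libraries, whereas Gm10719 and Gm10717 each stood at 0 in 9 libraries.

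**Figure D1:**
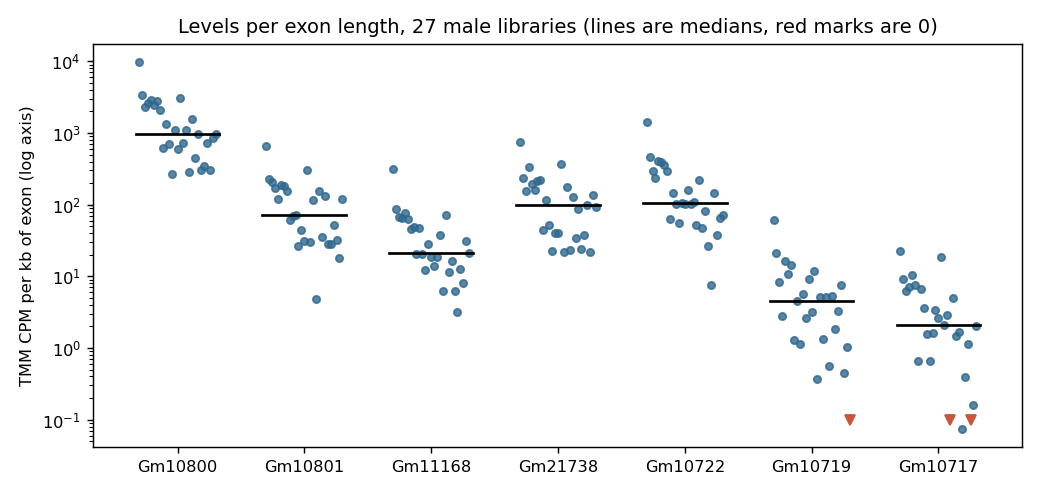
Level of each member per kb of exon (TMM CPM per kb, log axis) in the 27 male libraries; points are libraries, lines are medians and red marks at the bottom are libraries at 0. Gm10800 has the highest median (956) and Gm10717 the lowest (2.07).

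The level of Gm10800 depended on the combination of sex and strain. Female libraries of 3 long-inbred strains had very little of it. In 129S1/SvImJ, the 5 female libraries titled high held 0.325, 1.32, 3.83, 4.23 and 5.56 TMM CPM and the one titled low, from the cortex, held 96.2. The 3 male libraries of this strain held 1522, 2255 and 6399. In C57BL/6J, the female libraries held 3.01 and 3.53 and the male libraries 1642, 1757, 1867 and 1914. In DBA/2J, the female library held 1.09 and the male libraries 404.5, 460.3, 892.6 and 1367. In none of the 3 strains did the sexes overlap, and male means were 183-fold, 549-fold and 715-fold above female means in 129S1/SvImJ, C57BL/6J and DBA/2J.

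In the other 4 strains, Gm10800 was abundant in female libraries. The A/J female library held 535.8 TMM CPM, within the male values of 174.9, 400.8, 733.3 and 2017.7. The NOD/ShiLtJ female libraries held 447.9 and 450.9, within the male values of 188.0, 478.9, 724.1 and 1021. In both strains the sexes overlapped. The CAST/EiJ female libraries held 1074 and 1722, against 200.3, 229.1, 292.2 and 631.0 in males. The WSB/EiJ female libraries held 1503 and 1869, against 200.7, 481.7, 555.0 and 629.8 in males. In both wild-derived strains every female library was above every male library, with female means 4.13-fold and 3.61-fold above male means.

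**Figure D2:**
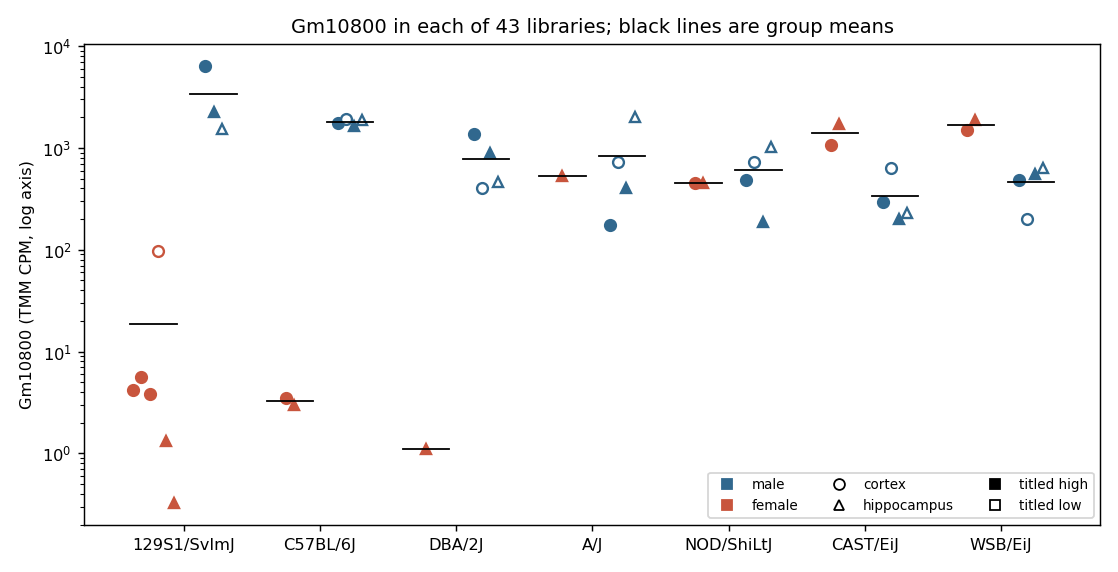
Gm10800 in each of the 43 libraries (TMM CPM, log axis) by strain, with female libraries in red and male libraries in blue, circles for cortex, triangles for hippocampus, filled marks for libraries titled high and open marks for those titled low; black lines are means. Female libraries of 129S1/SvImJ, C57BL/6J and DBA/2J lie at 96.2 or below, and all other libraries at 174.9 or above.

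The other members showed the same split by strain. Females lay entirely below males in 7 of 7 members in 129S1/SvImJ (0.975% of all genes tested did so), in 7 of 7 in C57BL/6J (3.03%) and in 7 of 7 in DBA/2J (9.07%). In A/J this held for 2 of 7 (4.41%), Gm11168 and Gm10717, and in NOD/ShiLtJ for 0 of 7 (2.18%). In CAST/EiJ, females lay entirely above males in 6 of 7 members (6.43% of all genes), with Gm10801 as the exception, and in WSB/EiJ in 2 of 7 (6.74%), Gm10800 and Gm21738.

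Several members were missing from the female libraries at the depth reached. In C57BL/6J, Gm11168, Gm10722, Gm10719 and Gm10717 had 0 counts in both female libraries. Against a floor of 3 counts over both libraries, males were at least 1032-fold higher for Gm11168 and at least 1968-fold higher for Gm10722. In 129S1/SvImJ, Gm10719 and Gm10717 had 1 count each over all 6 female libraries, against male means of 54.2 and 48.9 TMM CPM. The male to female ratio of Gm10719 was 13710, with a 95% counting interval of 2461 to 541524. Gm10722 had 14 counts over the 6 female libraries of 129S1/SvImJ and 1 count in the DBA/2J female library. Intervals and floors cover counting error only. The depth of these female libraries was 3892340 to 49372356 counts, and that of the female libraries of the other 4 strains 2731950 to 22883700.

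**Figure D3:**
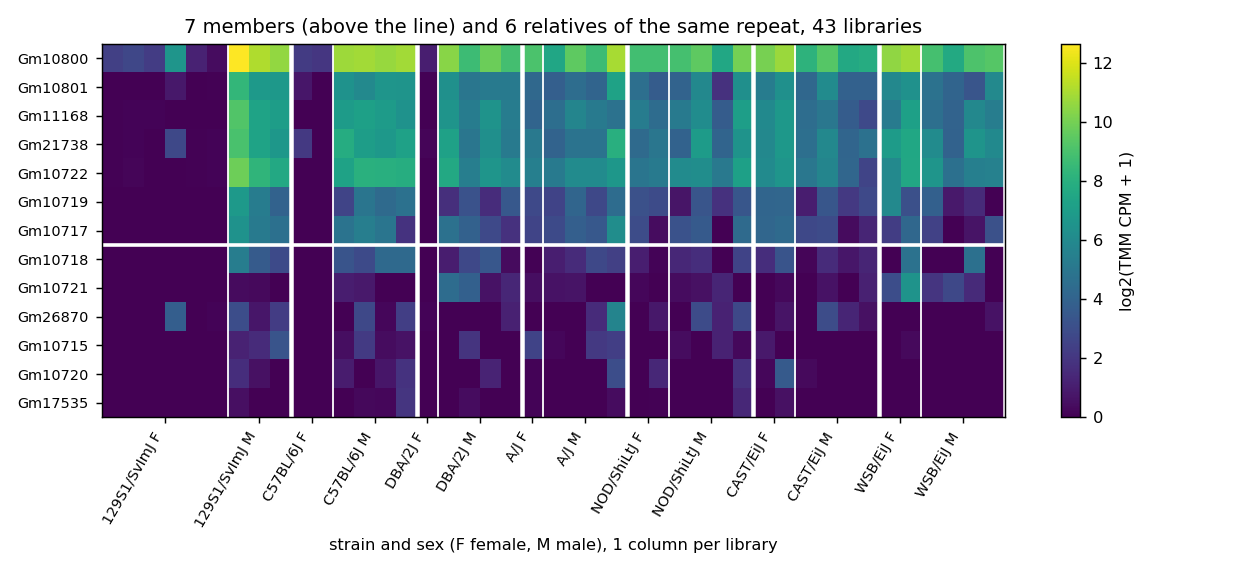
Level of the 7 members (above the line) and 6 relatives of the same repeat (below) in 43 libraries, as log2(TMM CPM + 1) in colour, with 1 column per library in groups of strain and sex. The 7 members are dark in the female columns of 129S1/SvImJ, C57BL/6J and DBA/2J, where Gm10800 does not pass 96.2 TMM CPM, and Gm10800 is the brightest row elsewhere.

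The sex difference was tested within each strain, and its difference among strains was tested in the same edgeR quasi-likelihood fit over 43 libraries, with Benjamini-Hochberg adjustment over 29120 genes. This fit was chosen after seeing the data. The sex effect differed among strains for 7 of 7 members (0.398% of all genes tested were called), with adjusted p from 1.23e-32 for Gm10722 to 9.91e-08 for Gm10717. Within 129S1/SvImJ, 7 of 7 members were lower in females (0.615%). The log2 fold change of Gm10800 was -7.52 ± 0.64 (SE derived from the F statistic of the test, adjusted p = 4.43e-16). Without the female library titled low, that fold change was -10.12 (adjusted p = 5.33e-30).

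Within C57BL/6J, 7 of 7 members were lower in females (0.391%), with -9.12 ± 1.15 for Gm10800 (adjusted p = 3.15e-08). With only 1 of its 2 female libraries, the count was 3 of 7 without the hippocampus library and 5 of 7 without the cortex library, and the lone library was then assumed to vary like the other groups. Within DBA/2J, 5 of 7 were lower (0.464%), with -9.47 ± 1.61 for Gm10800 (adjusted p = 7.37e-05), while Gm10719 (adjusted p = 0.235) and Gm10717 (adjusted p = 0.335) did not pass. The single female libraries of DBA/2J and A/J give no spread of their own, and the SE and p of both strains assume that they vary like the libraries of the other groups. Since some of these female groups stand at 0 counts, fitted fold changes of the rarer members depend on the prior count and are no bounds.

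No member passed within A/J (0.00687% of all genes called, with 1 female library), NOD/ShiLtJ (0.0206%), CAST/EiJ (0.0240%) or WSB/EiJ (2.26%). At an unadjusted p under 0.05, 1 member passed in NOD/ShiLtJ (220 of the 29120 genes), 3 in CAST/EiJ (187) and 4 in WSB/EiJ (3307). The log2 fold change of Gm10800 was -0.63 ± 0.94 in A/J and -0.42 ± 0.71 in NOD/ShiLtJ, and 2.05 ± 0.67 in CAST/EiJ (adjusted p = 1) and 1.85 ± 0.67 in WSB/EiJ (adjusted p = 0.151). The higher level in the wild-derived females was thus of one direction in every library but did not pass over all genes. With region as a covariate, a fit added after seeing the data, Gm10800 passed in both CAST/EiJ (2.16, adjusted p = 0.0378) and WSB/EiJ (1.83, adjusted p = 0.0127).

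**Figure D4:**
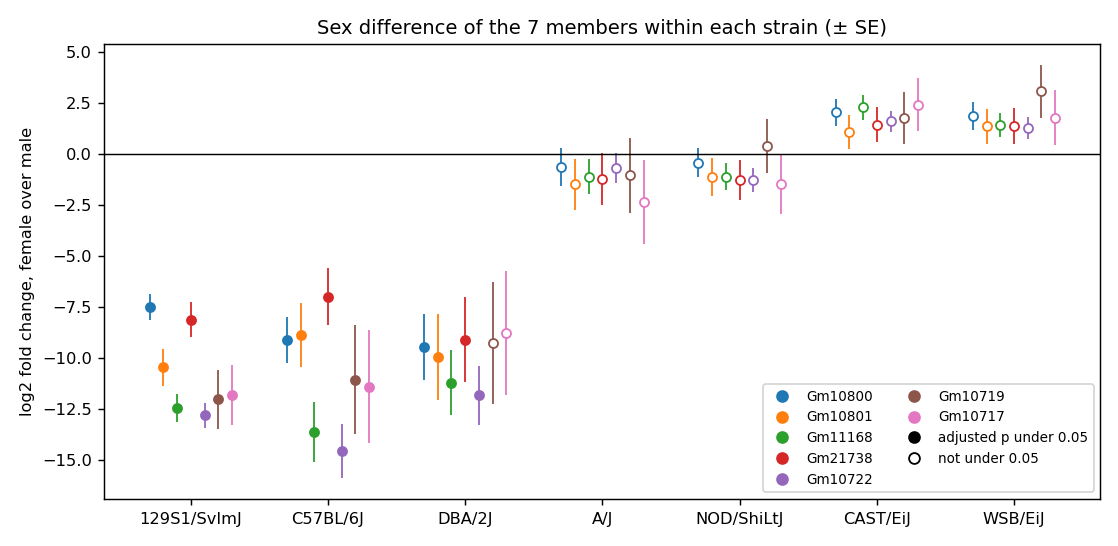
Log2 fold change (female over male) of the 7 members within each strain, with bars for the SE derived from the F statistic. Filled marks passed an adjusted p of 0.05 and open marks did not. Values are below -6 in 129S1/SvImJ, C57BL/6J and DBA/2J, between -2.36 and 0.38 in A/J and NOD/ShiLtJ, and between 1.08 and 3.07 in CAST/EiJ and WSB/EiJ.

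The comparison of the sexes over all strains depended on the setting. Over all 43 libraries, 0 of 7 members were called between females and males, while 2.85% of all 29120 genes were. At an unadjusted p under 0.05, 6 of 7 members and 3819 of all genes passed. Log2 fold changes ran from -0.87 for Gm10719 to -2.06 for Gm10722, whose adjusted p was the lowest (0.0628). The median change over all genes tested was -0.12, above the value of each member. DESeq2 called 1 member, and edgeR with default deviances called 5 members among 10473 genes. Leaving out CAST/EiJ gave 4 called members and leaving out WSB/EiJ gave 3. Without 129S1/SvImJ, the change of Gm10719 turned to 0.48.

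Between wild-derived and long-inbred strains, 0 of 7 members were called (0.749% of all genes), and DESeq2 called 0 as well. An unadjusted p under 0.05 was reached by 0 of 7 members and 2041 of 29120 genes. The log2 fold change of Gm10800 was -0.19 ± 0.61, against a median of -0.38 over all genes. Origin belongs to strains, and all tests of origin took libraries as replicates with no term for strain. Their p-values therefore do not measure the spread between strains. Each sex gave its own picture. In male libraries, 4 of 7 members were lower in the wild-derived strains (0.447%): Gm10800 by -1.80 ± 0.37 (adjusted p = 0.00331), Gm11168 by -2.06 ± 0.43, Gm10722 by -2.17 ± 0.42 and Gm10717 by -2.81 ± 0.69. In female libraries, 0 of 7 were called (0.207%), with values of 3.43 to 3.86 on the log2 scale. An unadjusted p under 0.05 was reached there by 7 of 7 members and 1822 of 21307 genes. In males, Gm10800 held 402 ± 192 TMM CPM (SD, n = 8) in wild-derived and 1380 ± 1390 (n = 19) in long-inbred strains, and the ranges of 200.3 to 631.0 and 174.9 to 6399 overlapped.

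Among the 7 strains, 0 of 7 members were called over all libraries (2.68% of all genes), and DESeq2 called 0 as well. An unadjusted p under 0.05 was reached by 0 of 7 members and 3107 of 29120 genes. With default deviances edgeR called 3 members among 13526 genes. Within males, 6 of 7 were called (1.72%), with adjusted p of 1.91e-10 for Gm10800 and 2.52e-11 for Gm10722, and 0.0538 for Gm10717. Within females, 5 of 7 were called (0.906%), with Gm21738 (adjusted p = 0.0593) and Gm10717 (0.0904) as the exceptions. The order of male means of Gm10800 was 129S1/SvImJ (3392 ± 2630, n = 3), C57BL/6J (1795 ± 121, n = 4), A/J (832 ± 823), DBA/2J (781 ± 447), NOD/ShiLtJ (603 ± 354), WSB/EiJ (467 ± 187) and CAST/EiJ (338 ± 199, SD, n = 4 in each). Neighbours in this order overlapped in every case. The C57BL/6J males lay above all males of DBA/2J, NOD/ShiLtJ, WSB/EiJ and CAST/EiJ.

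No member was called by region or title tag in edgeR with bias-adjusted deviances or in DESeq2, and 1 member was called by title tag with edgeR's default deviances. Between cortex and hippocampus, 0 of 7 members were called (0.0755% of all genes), with 0.09 ± 0.54 for Gm10800. An unadjusted p under 0.05 was reached by 0 of 7 members and 1631 genes. The called count was also 0 of 7 in male libraries alone (0.0581%) and in female libraries alone (0.0329%). In each, 0 members passed an unadjusted p under 0.05, against 858 of 27529 and 1345 of 21307 genes. Male libraries held a mean Gm10800 of 1197 ± 1663 TMM CPM in the cortex (SD, n = 13) and 991 ± 730 in the hippocampus (n = 14). Between male libraries titled high and low, 0 of 7 were called (1.06%) and 0 passed an unadjusted p under 0.05 (2233 of 27529 genes). The change of Gm10800 was 0.39 ± 0.35, with means of 1220 ± 1635 (n = 14) and 950 ± 656 (n = 13). Without the 129S1/SvImJ male cortex library, the highest of all, the region and tag values of Gm10800 turned to -0.45 and -0.19 and remained uncalled.

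As a description of how the labels share the variance of log2(TMM CPM + 1), sex alone took 12.9% to 40.6% per member (median 33.5%) and strain alone 7.4% to 18.6% (14.4%). Title tag took 3.4% to 9.9% and region 0.0% to 0.6%. Strain and sex together, with a mean for each combination, took 71.7% to 94.7% (median 86.9%).

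The members moved together. Because libraries fall into separate groups by strain and sex, correlations were taken over the 27 male libraries and over the 7 female libraries of A/J, CAST/EiJ, NOD/ShiLtJ and WSB/EiJ, with no value pooled over all 43. In males, Pearson's r of log2(TMM CPM + 1) was 0.56 to 0.93 over the 21 pairs (median 0.77) and Spearman's rho 0.48 to 0.92. All 21 pairs passed a permutation test of r after Benjamini-Hochberg adjustment over 42 tests, with a largest adjusted p of 0.00249. Libraries were permuted across strains, so differences between strains enter these p-values. The closest pair was Gm10800 and Gm21738 (r = 0.93), which lie on different chromosomes, and the loosest Gm11168 and Gm10719 (r = 0.56), both on chromosome 9. Without the 2 libraries farthest from the median, r was 0.46 to 0.90.

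Libraries titled high had a median r of 0.87 and those titled low 0.67. With each library centred on the mean of its strain, the median r was 0.65. In the 7 female libraries, r was 0.14 to 0.97 (median 0.78), and 4 of 21 pairs passed the permutation test. Since the members share sequence, a read can be counted on either of them, and the part of this in the correlations was not tested. The 2 members on chromosome 2 had r = 0.89 in males. They share no exact window of the read length with another annotated gene. Unannotated copies and alignments with mismatches were not searched, so the part of shared reads in this value was not tested either.

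Whether the members follow library quality was examined with 6 measures that use no member, in 84 permutation tests over the 27 male libraries. Depth showed no relation that passed in males. Correlations with the log10 of total counts passed for 0 of 7 members (median r = -0.01) and with the number of genes detected for 0 of 7 (median r = -0.17). The share of counts on 37 mitochondrially encoded genes passed for 0 of 7 (0.26). The share on 3 rRNA-like genes, Gm23935, Gm42418 and Gm26917, passed for 1 of 7, Gm10719 (r = -0.49, adjusted p = 0.0339, rho = -0.44), with a median r of -0.36. Without the 129S1/SvImJ male cortex library, it passed for 0 of 7.

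One measure went with every member. The summed share of counts on 1756 olfactory, vomeronasal and trace amine receptor genes, which sensory neurons use and EC are not known to, passed for 7 of 7 members. Pearson's r was 0.62 to 0.79 (median 0.73), rho 0.65 to 0.84, and the largest adjusted p was 0.00271 by permutation. The permutations moved libraries across strains, so these p-values also take in differences between strains. For Gm10800, r was 0.79 and rho 0.84, and r was 0.76 without the 2 farthest libraries. The median r was 0.78 among libraries titled high and 0.66 among those titled low. It was 0.75 without Olfr1372-ps1, a gene left out after seeing the data. The receptor genes took 31.9 CPM in the male library where Gm10800 was lowest (A/J cortex, 174.9 TMM CPM) and 826 where it was highest (129S1/SvImJ cortex, 6399).

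The share of counts on the nuclear RNAs Malat1 and Neat1 passed for 5 of 7 members (median r = 0.51), and for 0 of 7 once each library was centred on its strain mean. In the 7 female libraries, 0 of 7 members passed for any of the 6 measures by permutation, and the median r with receptor genes was 0.76. The median r there was -0.55 for log10 total counts, -0.43 for genes detected and -0.64 for the rRNA-like share. For the mitochondrial share it was -0.65, and for Malat1 and Neat1 0.57. For sums of cell type markers in male libraries, the median r with the members is given as a description with no test. It was -0.40 for fibroblast, -0.30 for microglial and leukocyte, -0.22 for neuronal, -0.18 for smooth muscle and -0.11 for endothelial markers. For pericyte markers it was 0.05, for astrocyte markers 0.09 and for oligodendrocyte markers 0.13.

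**Figure D5:**
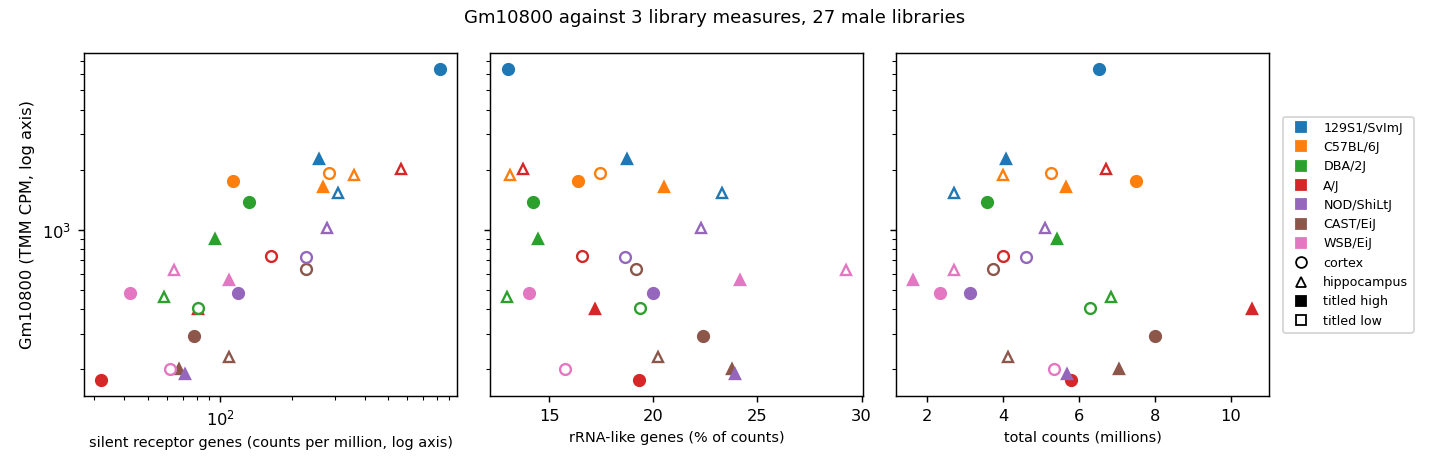
Gm10800 (TMM CPM, log axis) against the receptor genes labelled silent (CPM, log axis), the rRNA-like genes (% of counts) and total counts (linear axis). The 27 male libraries are coloured by strain, with circles for cortex, triangles for hippocampus and open marks for titled low. Pearson's r of log2(TMM CPM + 1) was 0.79 with the untransformed receptor share and -0.06 with log10 total counts.

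Other library measures moved with sex and strain too. The rRNA-like genes took 1.59% to 3.15% of counts in the female libraries of 129S1/SvImJ, C57BL/6J and DBA/2J, where the members were scarce. In the females of WSB/EiJ, where members were abundant, the share was 3.87% and 4.05%. It was 9.66% to 12.1% in females of CAST/EiJ, NOD/ShiLtJ and A/J and 13.0% to 29.3% in males. Malat1 and Neat1 took 1.17% to 3.16% in the first 3 female groups, 1.504% and 1.579% in WSB/EiJ, 0.401% to 0.757% in the other female groups and 0.263% to 2.104% in males. The receptor genes stood at 10.8 to 53.9 CPM in the first 3 female groups, at 23.2 to 106 in the other female libraries and at 31.9 to 826 in males. Without Olfr1372-ps1, they took 3.1e-05% to 0.0032% of counts in the first 3 female groups and 0.0017% to 0.0099% in the other female libraries. In males, the share without that gene was 0.0029% to 0.081%. Total counts ran from 27702669 to 47417529 in females and from 2710719 to 6541633 in males of 129S1/SvImJ. The DBA/2J female library held 49372356 counts and the males 3565114 to 6858266. Females also lay above males in A/J, NOD/ShiLtJ and CAST/EiJ, with 18623939 to 22883689 against 3125539 to 10567966. In C57BL/6J and WSB/EiJ, total counts of the sexes overlapped. The part of these measures in the sex difference was not tested, and a batch that coincides with strain and sex cannot be told apart from them.

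The 6 further genes of the repeat were rare. Median levels in males were 2.17 TMM CPM for Gm10718, 0.52 for Gm10721 and Gm26870, 0.18 for Gm10715 and 0 for Gm10720 and Gm17535. Between sexes 0 of 6 were called (2.85% of all genes) and 0 passed an unadjusted p under 0.05 (3819 genes, edgeR). For a difference of the sex effect among strains, 3 of 6 passed an unadjusted p under 0.05 (1640 genes). Only Gm10718 was called there, as 1 of 6 (0.398% of all genes, adjusted p = 0.00634, edgeR). It held 6.20 to 40.1 TMM CPM in male and at most 0.0191 in female libraries of 129S1/SvImJ. Among strains 1 of 6 was called (2.68% of all genes), Gm10721 (adjusted p = 0.0003, edgeR). Gm10721 held 88.4 TMM CPM in 1 of the WSB/EiJ female libraries and at most 20.9 in males. Region (0.0755%) and title tag (1.06%) called 0 of 6, with 0 and 1 (Gm26870) at an unadjusted p under 0.05 (1631 and 2233 genes).

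Of 21 genes for factors of pericentromeric heterochromatin, 3 were higher in females over all libraries (2.85% of all genes were called). They were Cbx1, an HP1 protein (log2 fold change 1.49 ± 0.20, adjusted p = 8.37e-08, edgeR), the chromatin remodeller Atrx (0.50 ± 0.13, adjusted p = 0.0155) and the helicase Hells (1.71 ± 0.50, adjusted p = 0.0391). The median change of the list was 0.30, against -0.12 over all genes, and 7 of 21 passed an unadjusted p under 0.05 (3819 genes). Atrx also differed among strains, as 1 of 21 (2.68% of all genes), and 1 of 21 was called by title tag (1.06%). Ehmt2, a histone H3 lysine 9 methyltransferase, was lower in male libraries titled high (-0.76 ± 0.19, adjusted p = 0.0261). By edgeR, 0 of the 21 were called by origin (0.749%), region (0.0755%) or a difference of the sex effect among strains (0.398%). An unadjusted p under 0.05 was reached by 3, 0 and 3 of the 21, against 2041, 1631 and 1640 genes.

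The pattern of the mean of the 7 members over 43 libraries was compared with that of 11627 other genes with a median of at least 1 TMM CPM, as a description. The highest correlations were those of Gm23935 (r = 0.74), Gm10718 (0.71), the endothelial phosphatase gene Ptprb (0.68), Gm24245 (0.68) and Eif3f (0.67), and the lowest those of Atp5j (-0.75), Xlr (-0.75) and Cox6c (-0.75). These libraries differ in sex and rRNA-like share. Within the 27 males, only Gm10718 of the 5 highest stayed high (0.69), and the other 4 lay between -0.07 and 0.17.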

How the data were processed

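The deposited table held raw read counts per gene, with no normalization by the authors. According to the study's methods and the submitters' processing notes, RNA was extracted with an AllPrep kit, rRNA was depleted and libraries were made with the SMARTer Stranded Total RNA Pico Input kit. Single-end reads of 125 bases were aligned to mm10 with HISAT2 2.1.0 and summarized with featureCounts of Subread 1.4.4, with SAMtools 1.9. The treatment of multi-mapping reads and the strand setting are not given in the sources used here.

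The members and gene lists were chosen with earlier results of these data known. A gene was kept when 1 or more libraries reached 0.5 CPM (29120 of 54532), and counts were scaled by TMM and tested with edgeR 4.0.16 in R 4.3.3 (quasi-likelihood F test, bias-adjusted deviances, trended dispersion), in two-sided tests of 1 factor at a time without covariates, at a Benjamini-Hochberg adjusted p of 0.05. A sex effect for each strain and its difference among strains were added after seeing the data. Each SE of an edgeR fold change is the absolute fold change divided by the square root of F. It restates the test and is no separate measure of precision. DESeq2 1.42.0 was an alternative. Covariate fits left out up to 3845 genes. In simulated data, 60% of genes with a log2 sex difference of 2 and 23% of those with 1 were recovered. Of these calls, 9.78% were false. For strain, 26% and 3% were recovered and 12.1% of calls were false. For title tag in males, 47% and 12% were recovered and 9.23% of calls were false. The fit of the sex effect within strains was not simulated. Correlations used log2(TMM CPM + 1) and 100000 permutations, so that the smallest possible p is 1e-05. Of the library measures, only total counts were log-transformed. Correlations were tested in groups of libraries because libraries form clusters, and permutations within a group moved libraries freely across strains. The likeness of other genes to the members over all 43 libraries is a description. Sequences came from GENCODE transcripts on mm10, compared by BLAST 2.17.0 at an e-value of 1e-20. The genes named were the members, the gene of smallest p in each fixed list, further list genes where few were called (chosen after their values were seen), and the 5 most and 3 least like the mean of the members. No column of the table was left out.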

Additional observations from a re-analysis of the deposited data

Results flagged for a closer look

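The sex effect differed among strains for all 7 members in the edgeR quasi-likelihood fit, with adjusted p of 7.9e-19 for Gm10800, 1.13e-14 for Gm10801, 4.58e-29 for Gm11168, 8.14e-11 for Gm21738, 1.23e-32 for Gm10722, 3.21e-09 for Gm10719 and 9.91e-08 for Gm10717. Female libraries were lower in 129S1/SvImJ, C57BL/6J and DBA/2J.

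In 11 of 49 groups of a member, strain and sex, 1 library stood far from the others by Dixon's criterion. Chance meets it in about 1 of 20 for independent, normally distributed values. The levels were untransformed and the members moved together, so that rate does not apply here. The 129S1/SvImJ female cortex library titled low held 96.19 TMM CPM of Gm10800, 0.7629 of Gm10801 and 5.583 of Gm21738, against at most 5.564, 0.05001 and 0.08833 in the other 5 female libraries. It had 0 counts of Gm11168, Gm10719 and Gm10717. Single counts set apart 2 other libraries of this group, at 0.01912 TMM CPM of Gm10719 and 0.02944 of Gm10717. The A/J male hippocampus library titled low held 155.5 TMM CPM of Gm10801, 247.7 of Gm21738 and 72.14 of Gm10717, against at most 22.03, 27.52 and 13.27 in the other male libraries. Gm10801 stood apart in the CAST/EiJ male cortex library titled low (67.27) and the DBA/2J male cortex library titled high (79.23), and Gm10719 in the WSB/EiJ male cortex library titled high (13.7).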

How the results depend on the processing

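No paired analysis was possible because it is not known which libraries came from 1 mouse. Of 853 values under alternatives, 775 were scored as unchanged. A fold change was unchanged if it kept its direction and its side of the threshold. The 248 counts and summaries, of which 223 were unchanged, were allowed a small change. The cause of the other changes was not tested. Members other than Gm10800 stood at 3 counts or fewer in 6 to 13 libraries, 6 to 9 of them female and 0 to 4 male. Between females and males, the count of called members was 1 with DESeq2 size factors, with DESeq2 and without a filter, 5 with edgeR's default deviances, 4 without CAST/EiJ and 3 without WSB/EiJ. By origin it was 4 in males only. Among strains it was 3 with default deviances, 6 in males and 5 in females. By title tag it was 1 with default deviances. Within C57BL/6J it ranged from 3 to 5 when 1 female library was left out. Within CAST/EiJ it was 1 with default deviances, 1 with region as a covariate and 2 in the hippocampus only, and within WSB/EiJ it was 1 under the same 3 settings and 1 without the 129S1/SvImJ female library titled low.

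The log2 change of Gm10800 by origin turned to 1.05 with the other factors as covariates, 0.19 in libraries titled high, 0.062 in the hippocampus, 3.51 in females and 0.10 without the 129S1/SvImJ male cortex library. By region it turned to -0.11 with covariates, -0.10 without 129S1/SvImJ, -0.0067 without DBA/2J, -0.55 in females and -0.45 without that male library. By title tag it turned to -0.32 with covariates, -0.33 in the hippocampus, -0.34 without 129S1/SvImJ and -0.19 without that library. By sex, Gm10719 turned to 0.48 without 129S1/SvImJ. Within A/J, Gm10800 turned to 0.89 in libraries titled high and 0.30 without the male hippocampus library titled low, and within NOD/ShiLtJ to 0.40 in libraries titled high.

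The median correlation among members in males was 0.65 after centring on strain means. Correlations with the rRNA-like share passed for 3 members in libraries titled high and for 0 without the 129S1/SvImJ male cortex library, those with the mitochondrial share for 2 and with Malat1 and Neat1 for 0 after centring. The variance share of strain was 21.2% with a pseudocount of 0.1. Settings that leave out that male library or centre on strain means, and all within-strain settings, were chosen after seeing the data.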
